A study of Mus musculus with 6 samples.

Results

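The genes described here are the replication-dependent histone genes of the mouse, taken as the 69 of 24493 genes in the deposited table whose symbols begin with Hist1h, Hist2h, Hist3h or Hist4h. They divide into 6 H1, 19 H2A, 19 H2B, 12 H3 and 13 H4 genes. A gene was tested if it reached 1 TPM (transcripts relative to the library's total, already divided by transcript length) in at least 2 of 6 libraries. This held for 61 of the 69 histone genes and for 13720 genes in all. All 6 libraries are bulk RNA of pancreatic tumor cells of 1 mouse line, 6419c5, known as a single clone, which were sorted out of subcutaneous tumors in C57BL/6 mice. The control group has 4 libraries and the GAFCP group 2, the latter treated with gemcitabine, abraxane, an agonist of CD40 and blockade of both PD-1 and CTLA-4. Gemcitabine, a nucleoside analog, interferes with DNA synthesis, and the paclitaxel in abraxane acts on microtubules. The labels do not state doses, times, mouse age, the sorting gate or whether each library had its own animal. The p-values therefore measure the spread between these libraries only, which may be technical.

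Histones package DNA into nucleosomes, each built on H2A, H2B, H3 and H4, while H1 binds the linker DNA between them. The replication-dependent genes lie in clusters, mostly lack introns and supply new histones in S phase. Their mRNAs usually end in a short conserved stem-loop in place of a poly(A) tail. That stem-loop is bound by SLBP, and the end is cut with the help of the U7 small nuclear ribonucleoprotein. A few of these genes are also known to give polyadenylated mRNA. No source used here gives the kind of library (poly(A)-selected or not), and how far a TPM value covers mRNA without a poly(A) tail was not tested.

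The stem-loop was searched for as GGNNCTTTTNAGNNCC on the sense strand of the GENCODE M21 transcript models (GRCm38, the assembly also called mm10). It was found in 44 of the 69 histone genes (63.8%), against 28 of 21810 other protein-coding gene symbols (0.13%). The 25 histone genes without a match included short models such as those of Hist1h2ai (393 bases) and Hist1h2bl (381 bases), and the models may differ from those the authors used. All 33 matches in H1, H2A, H2B and H3 genes began with GGCTC, while the H4 matches began with GGCCC in 9 genes and GGTCC in 2. The following lines show a selection of the genes with a match that were called higher or lower in the test below. No H2B gene called there had a match. The stem-loop is in capitals, with 5 flanking bases on each side where the model has them, and mm10 positions.
Hist1h1c (chr13:23739507-23739532, plus strand): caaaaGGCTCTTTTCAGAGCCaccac
Hist1h1e (chr13:23621777-23621802, minus strand): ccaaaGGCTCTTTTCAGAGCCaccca
Hist2h2aa1 (chr3:96246027-96246052, plus strand): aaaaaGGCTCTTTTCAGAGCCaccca
Hist1h3d (chr13:23576239-23576264, plus strand): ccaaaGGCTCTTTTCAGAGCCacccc
Hist1h3e (chr13:23561898-23561923, minus strand): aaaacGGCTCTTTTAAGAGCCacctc
Hist1h4m (chr13:21812124-21812147, plus strand): ctaaaGGCCCTTTTCAGGGCCatc
Hist1h4d (chr13:23581945-23581970, plus strand): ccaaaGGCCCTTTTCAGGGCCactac
Hist1h4j (chr13:21735432-21735457, plus strand): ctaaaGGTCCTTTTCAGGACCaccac
Hist2h4 (chr3:96262934-96262959, minus strand): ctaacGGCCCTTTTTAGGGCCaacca

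In the printed windows the first stem bases thus separate the H4 genes from the other types, and Hist1h4j differs from the other H4 genes shown. Genes with the same stem-loop did not all move the same way: Hist1h1c fell and Hist1h1e rose, with identical capitals. Models also differed in what follows the stem-loop. The model of Hist1h4m ends 3 bases after it and that of Hist2h2aa1 35 bases after it, whereas those of Hist1h1c, Hist1h1e and Hist2h4 run on for 840, 1153 and 1257 bases. No match was found in the models of Hist1h2bc, which has 2 exons, and of Hist2h2be, which is 2620 bases long.

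Histone transcripts were a small part of each library, and a handful of genes made up most of them. The 69 genes summed to 0.0804% to 0.0864% of all TPM in the control libraries and to 0.0935% and 0.0847% in GAFCP libraries 1 and 2. Hist1h2bc (H2B) averaged 194 TPM over the 6 libraries, Hist1h1c (H1) 113 TPM and Hist2h2aa1 (H2A) 108 TPM, and these 3 genes held 48.9% of the summed mean. With Hist3h2a (H2A) at 58.5 TPM and Hist1h4i (H4) at 48.6 TPM the share reached 61.5%. Averages of 5 to 20 TPM were seen in 23 genes, 1 to 5 TPM in 30 and under 1 TPM in 9, so for most of the family the values are low. Sequencing depth is unknown, since TPM keeps no depth, and the spread between libraries is the only measure of precision.

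Of the 61 tested histone genes 14 were higher and 3 lower with GAFCP (limma on log2(TPM + 1), Benjamini-Hochberg adjusted p under 0.05 over all 13720 genes). That is 23.0% higher, close to the 19.0% of all tested genes called higher, and 4.92% lower, where 28.5% of all tested genes were called lower. The median log2 change, GAFCP minus control, was 0.44 over the 61 genes and -0.07 over all genes tested, and 47 of the 61 changes were positive, against 40.8% of all genes. Both GAFCP libraries lay above all controls for 17 histone genes, where the share of all genes was 24.7%, and below all controls for 3, where the share of all genes was 36.9%. The genes called lower were Hist1h1c, Hist1h2bc and Hist2h2be, so 2 of the 3 were the most abundant of all. The count called higher was 7 without GAFCP library 1 and 11 without GAFCP library 2, and the count called lower 3 and 5. Such fits hold 1 GAFCP library and take its spread from the controls.

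**Figure D1:**
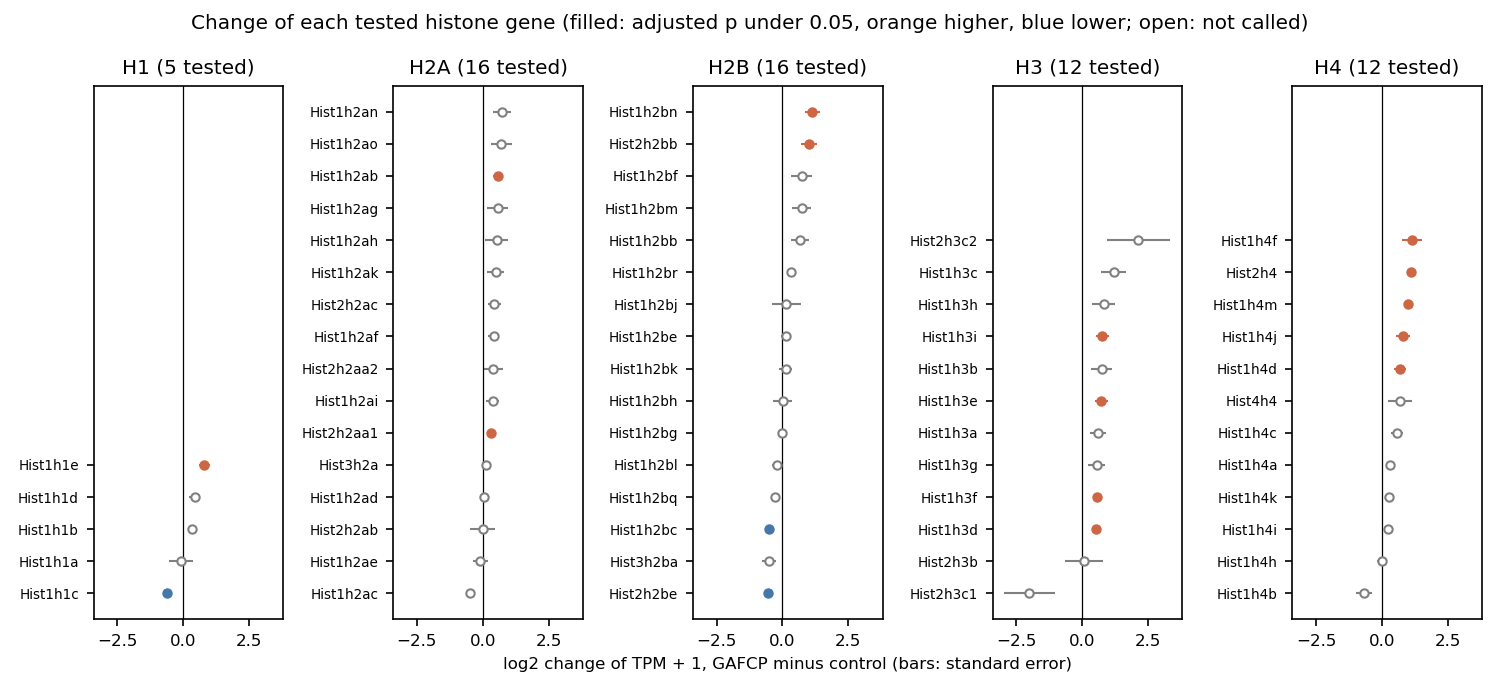
Log2 change of TPM + 1, GAFCP minus control, for each of the 61 tested histone genes, by histone type, with its standard error. Filled points passed the test: 14 higher in orange and 3 lower in blue, the latter in H1 and H2B, while open points did not pass.

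Sums over a histone type depend less on how reads are divided among near-identical genes of that type, and the types moved apart. Summed H3 was 76.9, 58.9, 69.1 and 58.1 TPM in control libraries 1 to 4 and 122 and 112 TPM in GAFCP libraries 1 and 2. Summed H4 was 129.6, 135, 127 and 129 TPM in the controls, and 212 and 166 TPM with GAFCP. In both types each GAFCP library lay above every control, with ratios of means of 1.78 for H3 and 1.45 for H4.

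Summed H2A was 220.3, 198, 242 and 204 TPM in the controls, and 271 and 250.1 TPM with GAFCP, a ratio of 1.21 with GAFCP library 2 close to control library 3. Summed H1 was 142, 147, 142 and 141 TPM in the controls, and 116 and 97.5 TPM with GAFCP, a ratio of 0.749. Summed H2B was 259, 265, 284 and 274 TPM in the controls, and 214 and 221 TPM with GAFCP, a ratio of 0.803. H1 and H2B thus lay below every control, and in each of them 1 abundant gene set the sum.

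Without Hist1h1c the other 5 H1 genes summed to 12.9 to 17.8 TPM in controls and to 21.7 and 26.0 TPM with GAFCP. Without Hist1h2bc the other 18 H2B genes summed to 49.0 to 59.96 TPM in controls and to 64.6 and 67.0 TPM. The remaining genes of both types were therefore higher in sum while the type as a whole was lower. Over the family, the 69 genes summed to 804 to 864 TPM among controls and 935 and 847 TPM with GAFCP, and these ranges overlapped. Leaving out Hist1h2bc and Hist1h1c, a choice made after their values were seen, the sums were 455 to 512 TPM and 691 and 622 TPM.

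**Figure D2:**
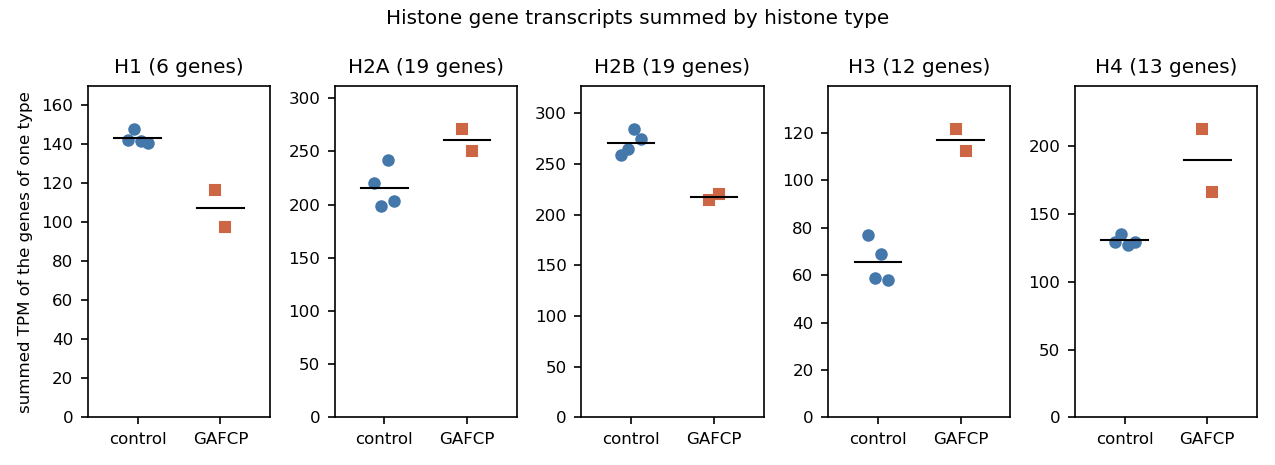
Summed TPM of the genes of each histone type by library, circles for the 4 control and squares for the 2 GAFCP libraries, with the group mean as a line and axes from 0. H3 and H4 sit above every control with GAFCP (H3 at 122 and 112 TPM), and H1 and H2B sit below.

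H4 had the most genes called higher, 5 of 12 tested, and none called lower (19.0% of all genes tested were called higher and 28.5% lower). H4 is the most conserved core histone and pairs with H3. Hist2h4 (chr3:96261682-96263311, minus strand) was 17.0, 15.2, 19.0 and 19.0 TPM in the controls, and 39.4 and 37.3 TPM with GAFCP. The GAFCP libraries were well clear of the controls, and the difference on the log2 scale was 1.09 ± 0.09 (SE; limma adjusted p = 5.0e-05). Of its 31-base stretches 97.7% occur in no other gene of GENCODE M21, so its reads could mostly be told apart from those of other genes.

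Hist1h4m (chr13:21811746-21812147, plus strand) was 8.61, 12.1, 10.6 and 12.03 TPM in the controls, and 19.3 and 25.6 TPM with GAFCP, again with no overlap (log2 change 0.98 ± 0.15, SE; limma adjusted p = 0.0013). It shares 91.7% of its 31-base stretches with Hist1h4n, which was listed at 0 in every library, so the value may stand for either gene. The other H4 genes called were Hist1h4d (6.92 to 11.9 TPM between the group means), Hist1h4j (3.81 to 7.61 TPM) and Hist1h4f (1.89 to 5.54 TPM). In each of them GAFCP library 1 was the high one, at 14.7, 9.96 and 7.96 TPM, with GAFCP library 2 nearer the highest control at 9.15, 5.27 and 3.11 TPM, against 9.06, 4.54 and 3.08 TPM. Without GAFCP library 1 they did not pass, with limma adjusted p of 0.268, 0.305 and 0.348. None of the 3 passed without control library 3 (0.0738, 0.0664 and 0.0695). Hist1h4d also failed without control library 2 (limma adjusted p = 0.0632), and Hist1h4f without control library 1 (0.0713) or 2 (0.0668). All 3 failed with the robust variance model and with no filter other than a value above 0. Over all alternatives Hist1h4f kept its call in 5 of 16, and Hist1h4d and Hist1h4j each in 10 of 17.

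Hist1h4i, the most abundant H4 gene, was 48.5, 50.4, 44.7 and 38.3 TPM in the controls, and 63.3 and 46.1 TPM with GAFCP, so the groups overlapped (limma adjusted p = 0.186, and 0.0383 without GAFCP library 2). Hist1h4k was 10.9 to 13.9 TPM in controls and 15.6 and 13.9 TPM (adjusted p = 0.0656 in limma). Hist1h4h was 11.9 to 14.4 TPM in controls and 16.9 and 9.77 TPM, on both sides of the controls. Hist1h4b had the lowest change of the type, -0.68 on the log2 scale, with 4.80 to 11.7 TPM among controls and 5.51 and 3.36 TPM with GAFCP (limma adjusted p = 0.0912). The changes of Hist1h4a, Hist1h4c and Hist4h4 lay between 0.32 and 0.68 and did not pass.

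H3 genes, whose proteins carry many of the best-known histone tail marks, had 4 of 12 called higher and none lower. The shares over all genes tested were 19.0% higher and 28.5% lower. Hist1h3d (chr13:23575763-23577011, plus strand) was 7.46, 7.86, 6.18 and 7.09 TPM in the controls, and 9.83 and 11.5 TPM with GAFCP. The difference on the log2 scale was 0.52 ± 0.10 (SE; limma adjusted p = 0.0048, and 0.0552 without GAFCP library 2). Hist1h3e was 8.60, 8.80, 6.24 and 4.14 TPM in the controls, and 10.9 and 12.7 TPM with GAFCP (log2 change 0.73 ± 0.25, SE; limma adjusted p = 0.0426). Both genes had no overlap between the groups.

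Hist1h3i went from 3.50 to 6.63 TPM between the group means and Hist1h3f from 1.19 to 2.19 TPM, with limma adjusted p of 0.0326 and 0.0173. These smaller calls rested on few libraries. Hist1h3e was lost without control library 3 (limma adjusted p = 0.0951), GAFCP library 1 (0.0995) or GAFCP library 2 (0.197). Hist1h3i was lost without control library 1 (0.0511), control library 3 (0.0744) or GAFCP library 1 (0.245), and Hist1h3f without GAFCP library 1 (0.0793) or 2 (0.117). Hist1h3c had the largest positive change among H3 genes of chromosome 13, 1.20 ± 0.47 on the log2 scale, from 1.67 to 7.78 TPM in controls to 16.5 and 8.47 TPM, and did not pass (limma adjusted p = 0.0686, and 0.0455 without control library 1). Hist1h3a, Hist1h3b, Hist1h3g and Hist1h3h, between 0.55 and 0.81, did not pass either.

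The 3 H3 genes of the chromosome 3 cluster are near-identical in parts of their sequence, and their values differed between libraries of 1 group. Hist2h3c2 was 24.2, 20.1, 19.2 and 0 TPM in controls 1 to 4 and 40.2 and 47.7 TPM with GAFCP. Hist2h3c1 was listed at 0, 2.93, 2.28 and 19.3 TPM in the same controls and at 0 in both GAFCP libraries. Control library 4 was thus high for Hist2h3c1 and at 0 for Hist2h3c2, the reverse of the other controls. How reads were assigned between them was not tested. No 31-base stretch of Hist2h3c1 is found in it alone, and its largest share with 1 other histone gene was 35.4%, with Hist2h3c2. Which genes hold the rest was not examined, so a sum over the 3 genes may not cover all shared reads.

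Neither gene passed the test (limma adjusted p = 0.128 for Hist2h3c1 and 0.186 for Hist2h3c2), and Hist2h3c2 passed without control library 4 (log2 change 1.02, limma adjusted p = 4.1e-04). Hist2h3b shares 80.6% of its stretches with Hist2h3c1. Summed with Hist2h3b, Hist2h3c1 and Hist2h3c2 came to 35.8, 24.0, 26.2 and 25.3 TPM in the controls, and 49.8 and 49.98 TPM with GAFCP. The sum did not overlap between groups and its control spread was 5.36 TPM (SD, n = 4) around 27.8 TPM. That sum was formed after the values were seen and was not tested.

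**Figure D3:**
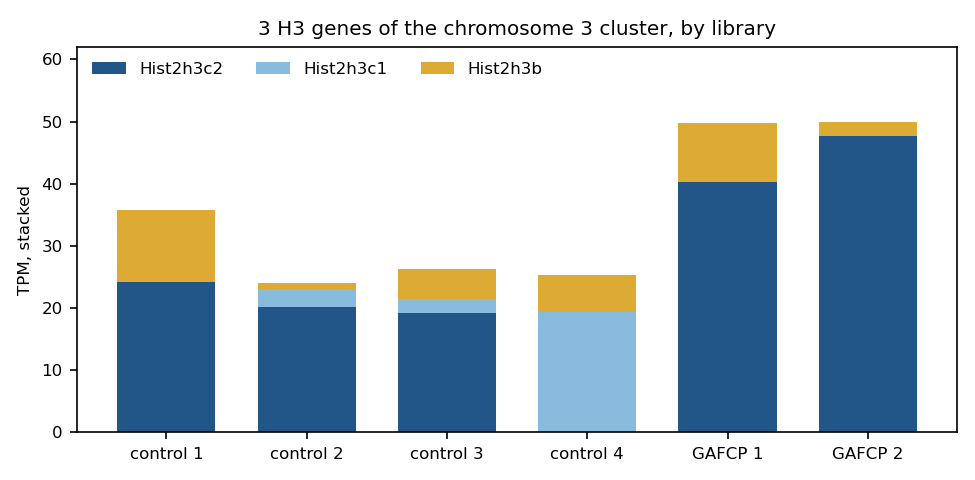
Stacked TPM of Hist2h3c2, Hist2h3c1 and Hist2h3b in each library. In control 4 the share of Hist2h3c2 is 0 and Hist2h3c1 stands at 19.3 TPM, while the stack as a whole is 25.3 TPM there, against 49.8 and 49.98 TPM in the GAFCP libraries.

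H2A had 2 of 16 genes called higher and none lower, where 19.0% of all genes tested were higher and 28.5% lower. Hist2h2aa1 (chr3:96245497-96246082, plus strand), the most abundant H2A gene, was 104, 91.2, 106 and 99.7 TPM in the controls, and 128 and 117 TPM with GAFCP. Every GAFCP value was above every control, and the group means differed by 0.29 ± 0.07 on the log2 scale (SE, limma adjusted p = 0.0081). Hist2h2aa1 lost its call without GAFCP library 1. It shares 89.6% of its 31-base stretches with Hist2h2aa2, at 3.88 to 12.7 TPM among controls and 11.9 and 11.3 TPM with GAFCP. The sum of the pair was 102 to 118 TPM in controls and 140.0 and 129 TPM.

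Hist1h2ab was 6.74, 4.93, 4.22 and 6.38 TPM in the controls, and 8.19 and 8.99 TPM with GAFCP, without overlap. Its limma adjusted p was 0.0228, and 0.0724 and 0.13 without GAFCP library 1 and 2. Hist3h2a, from the small cluster on chromosome 11, was 51.1, 54.9, 64.9 and 55.7 TPM in controls and 67.6 and 57.1 TPM, overlapping (limma adjusted p = 0.298). Hist1h2ao was 11.4, 2.99, 8.07 and 5.65 TPM in the controls, and 12.8 and 9.49 TPM with GAFCP. It shares 93.8% of its stretches with Hist1h2ap, which was listed at 4.02 TPM in control library 2 and at 0 elsewhere. Hist1h2ao did not pass (limma adjusted p = 0.178, and 0.0393 without control library 1). The other 11 tested H2A genes had changes between -0.47 and 0.74 and did not pass.

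H2B genes went both ways, 2 of 16 higher and 2 lower (19.0% and 28.5% of all genes). Hist1h2bc (chr13:23684199-23692908, plus strand), the most abundant of all the histone genes, was 201, 216, 228 and 214 TPM in the controls, and 149 and 154 TPM with GAFCP. Both GAFCP libraries lay far below the lowest control, and the difference between the group means was -0.50 ± 0.05 on the log2 scale (SE, limma adjusted p = 1.2e-04). Hist2h2be (chr3:96221119-96223738, plus strand) was 3.30, 3.28, 3.27 and 3.35 TPM in controls, a narrow range, and 1.77 and 2.12 TPM with GAFCP (log2 change -0.55 ± 0.10, SE; limma adjusted p = 0.0027). Of its 31-base stretches 97.2% occur in no other gene, and 67.4% of those of Hist1h2bc.

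Hist1h2bn rose from 1.79 to 3.73 TPM in controls to 9.38 and 4.69 TPM (log2 change 1.13 ± 0.27, SE; limma adjusted p = 0.0108, and 0.0949 without GAFCP library 1). It shares 74.6% of its stretches with Hist1h2bk. Of the 31-base stretches of Hist2h2bb 40.7% occur in no other gene, and its largest share with 1 other histone gene was 4.6%. Which genes hold the rest was not examined. Hist2h2bb was called (limma adjusted p = 0.0296) although its groups touched, at 2.54 TPM in control library 2 and 2.53 TPM in GAFCP library 1. The call was lost without GAFCP library 2 (adjusted p = 0.253 in limma), control library 3 (0.0709) or control library 4 (0.053).

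The other abundant H2B genes did not pass. Hist1h2bg was 8.43 to 13.1 TPM in controls and 11.4 and 9.66 TPM. Hist1h2br was 6.26 to 8.33 TPM in controls and 7.97 and 10.4 TPM (limma adjusted p = 0.0786, 0.0381 without control library 2 and 0.0443 without GAFCP library 1). Hist3h2ba was 5.10 to 7.70 TPM in controls and 2.56 and 6.17 TPM (limma adjusted p = 0.15, and 0.0099 without GAFCP library 2). The other 9 H2B genes that did not pass had changes between -0.28 and 0.73.

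Among the linker histones 1 of 5 tested genes was higher and 1 lower (19.0% and 28.5% of all genes). Hist1h1c (chr13:23738808-23740367, plus strand) was 124, 134, 125 and 128 TPM in the controls, and 94.6 and 71.6 TPM with GAFCP. No library overlapped, and the difference on the log2 scale was -0.63 ± 0.10 (SE; limma adjusted p = 0.0013). Hist1h1e (chr13:23620629-23622558, minus strand) was 10.8, 6.09, 8.91 and 6.31 TPM in the controls, and 15.2 and 13.6 TPM with GAFCP, above every control (log2 change 0.80 ± 0.20, SE; limma adjusted p = 0.0135, and 0.0872 without GAFCP library 1). The Hist1h1e model overlaps that of Hist1h2be on the same strand, with 24.5% of its stretches in common, and Hist1h2be itself was 2.56 to 4.50 TPM in controls and 3.27 and 4.22 TPM.

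The remaining H1 genes were low. Hist1h1d was 2.01 to 3.68 TPM among controls and 3.52 and 5.51 TPM with GAFCP, and Hist1h1b was 2.32 to 2.77 TPM and 2.59 and 4.64 TPM. Neither passed, with limma adjusted p of 0.117 and 0.143, though Hist1h1b did without GAFCP library 1 (0.0133).

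**Figure D4:**
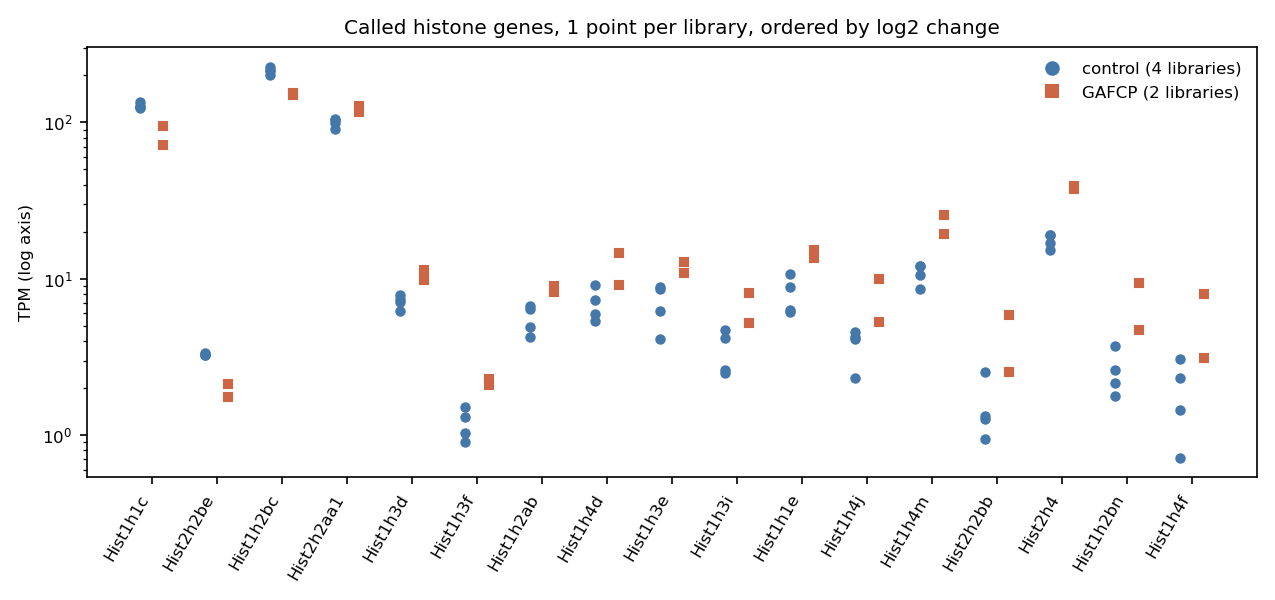
TPM in each library, on a log axis, of the 17 histone genes that passed the test, ordered by log2 change, with circles for control and squares for GAFCP libraries. Hist1h1c, Hist2h2be and Hist1h2bc at the left lie below their controls and Hist2h4 (39.4 and 37.3 TPM) lies clearly above, while Hist2h2bb touches its highest control.

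The calls of Hist2h4, Hist1h4m, Hist1h2bc, Hist1h1c and Hist2h2be held under every alternative in which they had a value, the largest adjusted p in limma being 0.0018, 0.014, 0.0052, 0.0348 and 0.0367. The other 12 calls were each lost under at least 1 alternative.

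The genes around the edge of the filter were few. Of the 8 histone genes not tested, Hist1h2aa, Hist1h2ba and Hist1h4n were listed at 0 in all 6 libraries. Hist1h1t, Hist1h2al, Hist1h2bp and Hist3h2bb-ps stayed under 1 TPM in all of them, with highest values of 0.307, 0.467, 0.743 and 0.359 TPM. Hist1h2al and Hist3h2bb-ps are processed pseudogenes in GENCODE M21. Hist1h2ap reached 1 TPM in 1 library only. The least supported genes inside the filter were Hist1h1a, Hist1h2an, Hist2h2ab and Hist2h3c1, each at 1 TPM or more in 3 libraries. No histone gene entered through GAFCP libraries alone, and 1, Hist2h3c1, entered through controls alone.

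Models that end near the stem-loop and models that run past it are described side by side, with a limit of 100 bases chosen after the values were seen and with no test. Over all genes 19.0% were called higher and 28.5% lower, with a median of -0.07. Of 19 tested genes whose model ends within 100 bases of the stem-loop, 4 were higher and none lower, with a median log2 change of 0.56. Of 21 whose model runs further, 7 were higher and 1 (Hist1h1c) lower, with a median of 0.45. Of 21 with no match, 3 were higher and 2 (Hist1h2bc and Hist2h2be) lower, with a median of 0.35. Of the 15 tested genes with AATAAA or ATTAAA in the last 50 bases of a model, 2 were higher and 2 lower (median 0.13). The higher ones were Hist2h4 and Hist1h4j, the lower ones Hist1h1c and Hist2h2be. Of the 46 without, 12 were higher and 1, Hist1h2bc, lower (median 0.54). Genes with at least 50% of their 31-base stretches to themselves numbered 24, of which 5 were higher and all 3 of the lower ones came from here (median 0.19). The other 37 had 9 higher and none lower (median 0.55).

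H2A and H2B genes often lie head to head and share the DNA between their starts. There were 13 such pairs with at most 400 bases between the starts in GENCODE M21, and both genes were tested in 9 of them. Changes had the same sign in 6 of the 9, and in none were both genes called. Of the 61 tested histone genes 47 had positive changes, so unpaired members would often match in sign as well. In the family 14 were called higher and 3 lower, beside 19.0% and 28.5% of all genes. Whether pairs matched more often than other members was not tested. Hist1h2ac and Hist1h2bc, 250 bases apart, stood at 4.16 and 194 TPM on average, with log2 changes of -0.47 (limma adjusted p = 0.0624) and -0.50. Hist2h2ac and Hist2h2be, 238 bases apart, had changes of 0.44 (limma adjusted p = 0.194) and -0.55.

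Promoters were read from RefSeq (GRCm38.p6) for 60 of the 69 genes, as the 250 bases before the start, and searched on both strands for 4 known promoter motifs, none of which contains another. The CCAAT box was found in 49 of 60 (81.7%; 33.8% of all 32851 promoters), in every H1, H2A and H2B promoter read but in only 3 of 12 for H4. The octamer of H2B promoters, ATTTGCAT, was in 13 of 60 (1.6% of all promoters), 7 of them H2A and 6 H2B, many of which share one stretch of DNA. The H1 box, with the letters AAACACA, was in 5 of 6 H1 promoters (6.2% of all). The TATA box, searched as TATAAA, was in 29 of 60 (12.4% of all). A match is a description of the letters, not a binding site. Shown in capitals below are the matches in the H1 genes that moved in opposite directions, in the stretch between Hist1h2ac and Hist1h2bc, and in the H4 gene Hist1h4m.
Hist1h1c (chr13:23738557-23738806, plus strand): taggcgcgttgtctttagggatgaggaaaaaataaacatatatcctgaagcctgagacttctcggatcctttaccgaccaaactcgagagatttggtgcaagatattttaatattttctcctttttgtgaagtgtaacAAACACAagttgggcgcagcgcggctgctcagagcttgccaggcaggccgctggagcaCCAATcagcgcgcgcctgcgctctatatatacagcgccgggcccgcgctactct
Hist1h1e (chr13:23622559-23622808, minus strand): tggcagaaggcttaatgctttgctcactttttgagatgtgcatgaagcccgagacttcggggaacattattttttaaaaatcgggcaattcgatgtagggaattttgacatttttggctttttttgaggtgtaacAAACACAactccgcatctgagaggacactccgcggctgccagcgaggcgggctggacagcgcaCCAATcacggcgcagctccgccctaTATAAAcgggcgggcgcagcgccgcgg
Hist1h2ac (chr13:23683960-23684209, minus strand): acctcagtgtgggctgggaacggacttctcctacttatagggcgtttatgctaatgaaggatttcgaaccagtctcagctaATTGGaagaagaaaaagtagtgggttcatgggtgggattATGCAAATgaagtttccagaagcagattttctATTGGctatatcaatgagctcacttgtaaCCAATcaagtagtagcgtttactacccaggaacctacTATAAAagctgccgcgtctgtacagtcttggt
Hist1h4m (chr13:21811496-21811745, plus strand): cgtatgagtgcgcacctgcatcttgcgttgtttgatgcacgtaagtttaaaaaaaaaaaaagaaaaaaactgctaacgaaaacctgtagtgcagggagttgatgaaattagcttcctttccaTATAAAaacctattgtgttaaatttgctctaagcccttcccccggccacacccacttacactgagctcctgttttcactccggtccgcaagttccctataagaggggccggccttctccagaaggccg

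The H1 promoters share the H1 box and a CCAAT box at nearly the same distance from the start, 112 and 54 bases before it in Hist1h1c and 115 and 52 bases in Hist1h1e, and differ in the TATAAA match, present 27 bases before the start of Hist1h1e. The Hist1h2ac stretch holds the octamer on its reverse strand, which is the forward strand of Hist1h2bc. The Hist1h4m promoter held TATAAA 128 bases before the start and no other of the 4 motifs. The search took exact letters only, so close variants were not counted. In Hist1h1c, tatatata lies between the CCAAT box and the start, and in Hist1h4m, tataag lies between TATAAA and the start.

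Histone mRNA is processed by a dedicated machinery, and its 21 tested genes had 4 higher and 5 lower (median log2 change 0.06), which is near the shares over all genes, 19.0% higher and 28.5% lower. Slbp, which binds the stem-loop, was 35.8 to 39.8 TPM among controls and 39.3 and 41.0 TPM with GAFCP and did not pass (limma adjusted p = 0.167, and 0.0315 with median-of-ratios scaling). Casp8ap2, a partner of the U7 particle, averaged 3.86 and 4.59 TPM (limma adjusted p = 0.134, and 0.0281 with that scaling). Snrpd3 and Snrpf, Sm proteins also used in splicing, were higher by 0.28 and 0.22 on the log2 scale, while Snrpe changed by -0.37. The endonuclease gene Cpsf3 changed by -0.23. Without GAFCP library 1 or 2 the adjusted p in limma was 0.0523 and 0.0714 for Cpsf3 and 0.0906 and 0.0669 for Snrpf.

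Of 15 genes that act on histone gene transcription or on entry into S phase, 5 were higher and 1 lower (median 0.13; 19.0% and 28.5% of all genes). Cdkn1a, the p21 inhibitor of cyclin-dependent kinases, was 24.3 to 29.4 TPM in controls and rose to 92.5 and 94.4 TPM. Ccne1, cyclin E1, rose from 7.43 to 13.9 TPM, E2f1 from 12.2 to 17.6 TPM and E2f2 from 3.79 to 5.48 TPM. E2f2 did not pass without GAFCP library 2 (limma adjusted p = 0.0619). Npat, the coactivator of the histone clusters, was 4.41 to 5.12 TPM among controls and 4.11 and 4.59 TPM with GAFCP (limma adjusted p = 0.438).

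Of 42 S phase and DNA replication genes 26 were higher and 1, Mcm6, was lower, with a median log2 change of 0.28. Over all genes 19.0% were called higher and 28.5% lower. Rrm2, a ribonucleotide reductase subunit, rose from 72.0 to 113 TPM, Cdc45, of the replicative helicase, from 15.3 to 27.1 TPM, Mcm5 from 29.0 to 45.9 TPM and the clamp gene Pcna from 147 to 185 TPM. Of 20 genes of G2 and mitosis 6 were higher and 4 lower (median 0.10, beside 19.0% and 28.5% of all genes). Top2a rose from 35.6 to 65.3 TPM, Cdk1 from 16.7 to 26.2 TPM and Birc5 from 66.7 to 87.7 TPM, while the cyclin gene Ccnb2 fell from 58.3 to 39.0 TPM. Mki67 averaged 15.3 and 17.8 TPM and did not pass (limma adjusted p = 0.107, 0.0341 without control library 3 and 0.0153 with median-of-ratios scaling).

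Most replication-independent histone variants are made throughout the cell cycle from polyadenylated mRNA. Of the 10 tested 6 were lower and 2 higher (median -0.16, beside 28.5% lower and 19.0% higher among all genes). H1f0, a linker histone of resting cells, was 203, 211, 194 and 205 TPM in the controls, and 119 and 111 TPM with GAFCP (log2 change -0.81 ± 0.05, SE; limma adjusted p = 5.0e-06). H2afv changed by -0.81, from 70.5 to 39.8 TPM. The H3.3 genes moved apart: H3f3a fell from 562 to 396 TPM and H3f3b rose from 461 to 531 TPM.

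H2afz averaged 759 and 700.4 TPM, a log2 change of -0.12 (limma adjusted p = 0.0163, 0.0876 and 0.123 without GAFCP library 1 and 2, and 0.395 with median-of-ratios scaling). Of 21 histone chaperone genes 7 were higher and 1 lower (median 0.12; 19.0% and 28.5% of all genes). Daxx, a chaperone of H3.3, rose by 0.44 on the log2 scale, and Chaf1b and Asf1b, which deliver new H3 and H4 at the replication fork, by 0.44 and 0.43. Rbbp4 changed by -0.24.

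RNAs known to lack a poly(A) tail were looked at as a reading on library preparation. Of 10 tested none was called by limma (median log2 change -0.40), and 2 had an unadjusted p under 0.05. Over all genes tested 19.0% were called higher and 28.5% lower. The standard errors of these RNAs on the log2 scale ran from 0.15 (Rn45s) to 0.86 (Scarna10). The ribosomal precursor Rn45s was 5833 to 8989 TPM among controls and 5676 and 5332 TPM with GAFCP (limma adjusted p = 0.06), and Rmrp was 21.7 to 47.8 TPM and 19.98 and 20.7 TPM. The small RNA Rnu73b went the other way, at 26.3 to 57.5 TPM among controls and 77.7 and 72.1 TPM with GAFCP (limma adjusted p = 0.0896). The part of library preparation in the histone values was not tested.

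Markers of several other cell types, though not of all, moved with the treatment in the same libraries. Among all genes tested 19.0% were called higher and 28.5% lower. All 10 pan-leukocyte markers tested were higher, and their summed TPM was 149 to 165 in controls and 412 to 416 with GAFCP. All 14 macrophage and monocyte markers were higher (1515 to 1619 TPM against 6171 to 6243 TPM). So were the 10 T and NK cell markers tested (7.93 to 10.2 TPM against 44.1 to 48.4 TPM). Of these, Cd3e, Cd3g, Cd8b1 and Cd4 reached 1 TPM in no control library and entered the test through GAFCP libraries alone. The filter thus favored a higher call for them. Fibroblast and pericyte genes had 6 of 9 tested called higher and 1 lower. Called higher were 4 of 5 neutrophil, 1 of 2 endothelial, 1 of 1 B and plasma cell and 0 of 3 erythroid markers tested. None of these was called lower. Of 8 epithelial markers that check the tumor cell label 6 were lower, with Krt8 at 2321 and 1544 TPM and Epcam at 12.8 and 1.54 TPM between the group means. In bulk RNA, a changed share of cells in S phase, a changed share of other cells and a changed amount of RNA per cell cannot be told apart, and the part of these cells in the histone values was not tested.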

How the data were processed

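Bulk RNA of 6 libraries (4 control, 2 GAFCP) was read from 1 deposited table of TPM values for 24493 genes, which the authors made with Salmon and mm10 per the submitters' processing notes, with no version or annotation named in the sources used here. TPM holds no depth, so no count test or counting interval was possible. Titles gave each library's group and number. The test covered genes reaching 1 TPM in 2 or more libraries and was run with limma 3.58.1 in R 4.3.3 on log2(TPM + 1), with a mean-variance trend, 4 residual degrees of freedom and Benjamini-Hochberg adjustment over all genes tested (called under 0.05). Low genes show smaller changes on this scale than in TPM. The test was checked on simulated data. Members, gene lists and marker lists were chosen with earlier results of these data known. The rule for named genes took, per histone type, the 4 most abundant and the called genes with the largest increase and decrease, and, per list, up to 4 called genes with the smallest p plus Slbp, Npat, Casp8ap2, H2afz, H3f3a, H3f3b, H1f0, Pcna and Mki67. All others were named after their values were seen. Transcript models are GENCODE M21, all 69 symbols matched; promoters are RefSeq GRCm38.p6. Near-identical genes were judged by the share of 31-base stretches found in no other gene. Alternatives changed the pseudocount, filter, scaling, variance model, block and libraries used.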

Additional observations from a re-analysis of the deposited data

Results flagged for a closer look

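Hist2h3c1 in control library 4 stood at 19.3 TPM, far from the other controls at 0 to 2.93 TPM, a gap larger than expected for 1 value in a group of 4. In the same library Hist2h3c2 was listed at 0. Chance alone gives such a value in about 1 in 20 groups, and all 61 tested genes were looked at.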

How the results depend on the processing

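Over the alternatives, each changing 1 choice, the 14 histone genes called higher became 7 with no filter other than a value above 0 and 7 to 19 when 1 library was left out. The 3 called lower became 6 with control libraries 3 and 4 only and 3 to 5 when 1 library was left out. Genes around histone supply (50 higher, 18 lower) ranged from 31 to 51 and from 10 to 20 when 1 library was left out, the low ends coming without a GAFCP library, and were 74 higher and 12 lower with median-of-ratios scaling. Histone supply here pools the lists of mRNA processing, histone gene transcription, replication-independent variants, chaperones, S phase and DNA replication, and G2 and mitosis. Mcm2, listed under chaperones and under replication, was counted once. With the main settings 128 such genes were tested, and among all genes tested 19.0% were called higher and 28.5% lower. Log2 ratios of summed TPM also ranged when 1 library was left out. They ran from 0.0376 to 0.18 for all 69 genes, from -0.55 to -0.296 for H1 and from 0.35 to 0.70 for H4. The H2B ratio moved to -0.254 with median-of-ratios scaling. No sum changed direction. Hist1h2bg, not called, turned to 0.0486 with median-of-ratios scaling and ranged from -0.1189 to 0.0995 when 1 library was left out. Hist1h4h, not called, turned to 0.0029 with a pseudocount of 5, 0.0538 with median-of-ratios scaling and 0.0908 with control libraries 3 and 4 only, and ranged from -0.37 to 0.36 when 1 library was left out. The cause was not tested. With the replicate number as a block, 19 histone genes were higher and 3 lower. In that fit control libraries 3 and 4 have no same-numbered GAFCP library and add nothing to the contrast. Deviations from the group means in same-numbered libraries had correlations of -0.01 and -0.02. The deviations of 2 GAFCP libraries mirror each other, so these values cannot decide whether the numbers mark pairs. Scalings moved the median of all genes by less than 0.1. Unknown depth and 2 GAFCP libraries limit what low genes can show.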
